A study of Mus musculus with 24 samples.

Results

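Loss of SCAP was examined in CCR6+CD69+ memory B cells of the lung (titled csMBC), in 4 libraries labelled SCAP cKO and 4 labelled WT, 8 of the 24 libraries of the study. They were taken by their labelled genotype and sorted population, with no use of measured values. The cKO mice were SCAP fl/fl hCD20-TamCre and the WT mice SCAP +/+ hCD20-TamCre, so both genotypes carried the Cre, which is driven by the human CD20 promoter, a promoter active in B cells, and is of the tamoxifen-inducible kind. All mice received house dust mite extract intranasally and met this allergen again 6 weeks later, and in the cKO mice SCAP was deleted before that recall. Each genotype had 2 libraries in batch 1 (replicates 1 and 2) and 2 in batch 2 (replicates 3 and 4), as the labels number the batches. The age and sex of the mice are not in the labels, and nothing in them says that replicates were separate animals, so p-values measure the spread between these samples only.

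SCAP is the escort protein of the SREBP transcription factors. When sterols in the endoplasmic reticulum are low, SCAP carries an SREBP into COPII vesicles to the Golgi, where the proteases S1P and S2P release its active part. The released factor binds sterol regulatory elements and switches on cholesterol synthesis, LDL uptake and fatty acid synthesis. When sterols are plentiful, the Insig proteins hold SCAP in the endoplasmic reticulum. Activated lymphocytes need both lipid branches to build membrane.

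Total counts ran from 2765735 to 8566243 in the WT and from 2081557 to 4181963 in the cKO libraries, so 3 counts, the limit that a count of 0 allows, stood for 0.350 to 1.44 CPM (counts scaled to 1e6 per library, counting error only). Thinned to 2081557 counts each, the WT libraries held 5959 to 6075 genes with 10 or more counts, and the cKO libraries 4933 to 5751. The groups did not overlap in this measure (6023 ± 59.1 in WT, 5284 ± 360 in cKO, SD, n = 4). The difference was -738.8, with -921.5 in batch 1 and -556 in batch 2. Its exact permutation p was 0.0286, two-sided, the smallest that 4 against 4 can give when libraries are permuted freely. This permutation ignored batch, and a permutation within batches, which has fewer arrangements and so a larger smallest p, was not run. Over all genes tested, the mean log2(CPM + 1) averaged 5.83 ± 0.11 in WT and 5.54 ± 0.18 in cKO libraries, again with no overlap. On log2 CPM without thinning, WT libraries correlated with each other at 0.776 to 0.888 (Pearson's r) and cKO libraries at 0.623 to 0.730. Genes are not independent of each other, and depth was not equalised in these correlations. By genes detected at all after thinning the groups overlapped (7011 ± 266 in WT, 6359 ± 515 in cKO, SD, n = 4). The exact permutation p, by the same free permutation, was 0.0857. Replicate 3 of the cKO was lowest in this measure (5645, against 6321 to 7245 in the other 7). By genes with 10 or more counts, replicate 1 of the cKO was lowest (4933). The batches differed in 339 genes in edgeR, 78 higher and 261 lower in batch 2, and the share of ribosomal protein genes was 11.4 to 14.2% in batch 1 but 3.72 to 4.20% in batch 2. These differences in the number of genes seen move with genotype, and their part in the results on low genes was not tested.

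Scap itself was counted at 66.0, 81.0, 126 and 64.0 CPM in WT replicates 1 to 4 and at 168, 47.3, 43.0 and 94.3 CPM in cKO replicates 1 to 4. The highest and the lowest library were both cKO, and the groups overlapped (log2 fold change, cKO against WT, 0.04 ± 0.52 SE, adjusted p = 0.996 in edgeR's quasi-likelihood test). Gene-level counts cannot show whether a stretch between loxP sites was lost, so this value does not check the genotype labels. In bulk samples, cells that escaped deletion and transcripts that outlast it cannot be told apart, nor can fewer cells of a type and less RNA per cell. Cd69, the transcript of a sorting marker that holds lymphocytes in tissue, averaged 976 ± 216 CPM in WT and 1192 ± 325 in cKO libraries (log2 fold change 0.29 ± 0.22, adjusted p = 0.988 in edgeR).

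B cell transcripts were present in all 8 libraries. The genes given here do not check the memory state or class switching of the labelled cells. Ms4a1, which encodes CD20, lay between 1228 and 1429 CPM in WT and between 1478 and 1692 CPM in cKO libraries, a narrow step with no overlap that did not pass (0.22 ± 0.18). Of 13 tested genes of B cell identity, 8 were higher and 5 lower in cKO, with a median log2 fold change of 0.15. T cell markers summed to 53.0 to 86.2 CPM in WT and 24.3 to 167 CPM in cKO libraries. Among them Lck, a kinase of antigen receptor signalling, lay at 6.37 to 81.9 CPM over the 8, and Cd3e, of the T cell receptor complex, was at 0 in 5 libraries and at 13.9 CPM in cKO replicate 4, where Cd28 was at 47.0 CPM and Cd4 at 26.9 CPM.

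Across the transcriptome, no gene passed between genotypes. Of 6058 genes tested, 0 had an adjusted p under 0.05 in edgeR's quasi-likelihood test with batch as a covariate (0% of those tested). The smallest adjusted p was 0.124. An unadjusted p under 0.05 was reached by 268 genes, 4.42% of those tested, with 130 higher (2.15%) and 138 lower (2.28%) in cKO. That number ran from 138 (without WT replicate 1) to 485 (without cKO replicate 4) with each library left out, and was 453 without cKO replicate 2. If no gene differed, a share of about 0.05 would reach an unadjusted p under 0.05. In the main fit the 4.42% was not above that share. DESeq2 called 0 genes as well, and limma voom with quality weights called 1, Il1b. Without the filter on low counts edgeR called 8 genes: Il1b, S100a9 and Hspa1a higher, and Rpl29, Rps28, Rpl21, Rpl37rt and Ndufb1 lower in cKO. Leaving out WT replicate 1 or cKO replicate 3 let 1 gene pass, Rpl29 (lower in cKO, adjusted p = 0.0181 and 0.0093). The spread between replicates was wide, with a biological coefficient of variation of 0.706 and a median SE of 0.611 on the log2 scale.

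The 2 directions differed in expression and in size of change, a difference that was not tested. The 130 higher genes had a median expression of 135 CPM and a median log2 fold change of 1.01 in size, and 8 of them went beyond 4-fold. The 138 lower genes had a median expression of 35.9 CPM and a median of 2.58 in size, and 79 went beyond 4-fold. In 15 of the lower genes every cKO library held at most 3 counts, while 0 of the higher genes had at most 3 counts in every WT library. A gene this scarce in 1 genotype was tested only if all 4 libraries of the other passed the filter on low counts. The part of the filter in these differences between directions was not tested. All 4 cKO libraries lay below all 4 WT libraries in 129 genes (2.13% of those tested) and above them in 84 (1.39%).

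Cholesterol synthesis genes leaned lower in cKO without passing. Of 23 genes on the list, 14 had a row and all 14 were tested. Of these, 11 were lower and 3 higher, with a median log2 fold change of -0.58, against -0.01 and 50.6% lower over all genes tested. With the replicate number as a block the median was -0.98, in a fit that also moved the median of all genes to -0.14. The lowest values were those of Mvk, mevalonate kinase, at -2.57 ± 1.52, Mvd, mevalonate diphosphate decarboxylase, at -2.09 ± 1.40, and Pdss1, which makes the side chain of coenzyme Q, at -1.36 ± 1.95. Pmvk, phosphomevalonate kinase, came next at -1.10 ± 0.65. Mvk and Mvd were thinly counted, Mvk at 1.00 to 20.0 CPM in WT and 0 to 8.57 CPM in cKO libraries, and Mvd at 11.9 to 28.4 CPM and 0 to 12.0 CPM.

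Hmgcs1, which makes the HMG-CoA that enters the pathway, showed no such lean. It was counted at 84.2, 128, 49.95 and 122 CPM in WT and at 119, 66.3, 89.6 and 120 CPM in cKO replicates 1 to 4. The groups overlapped fully (0.04 ± 0.44, adjusted p = 0.996 in edgeR). The SE of 0.44 on the log2 scale sets the size of change that these libraries could resolve.

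Cyp51, the demethylase of lanosterol and the most abundant tested gene of the pathway, was counted at 445, 496, 571 and 438 CPM in WT and at 149, 303, 383 and 505 CPM in cKO replicates 1 to 4. Of the cKO libraries 3 lay below every WT library, and replicate 4 lay among them (-0.62 ± 0.28, unadjusted p = 0.0383, adjusted p = 0.988 in edgeR). It was the 1 gene of the 14 with an unadjusted p under 0.05. The value was -1.03 within batch 1 and -0.19 within batch 2. Msmo1, the methylsterol oxidase that acts after it, stood at -0.46 ± 0.47. In none of the 14 genes did the 2 groups of libraries stand apart.

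As a mean over its 14 genes, the list did stand apart. The mean log2(CPM + 1) was 5.32, 5.67, 5.04 and 5.20 in WT and 4.54, 4.42, 4.08 and 4.59 in cKO replicates 1 to 4, a difference of -0.90. Within batches it was -1.02 and -0.78. The same mean over all 6058 genes differed by -0.29, -0.30 within batch 1 and -0.28 within batch 2, so the list moved in a background that was itself lower in every cKO library. Genes scarce in 1 genotype are among these 6058 only through the other. The part of the filter on low counts in that background difference was not tested. The summed CPM of the list, which abundant genes set, overlapped: 1012 to 1201 in WT and 634 to 1074 in cKO libraries.

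**Figure D1:**
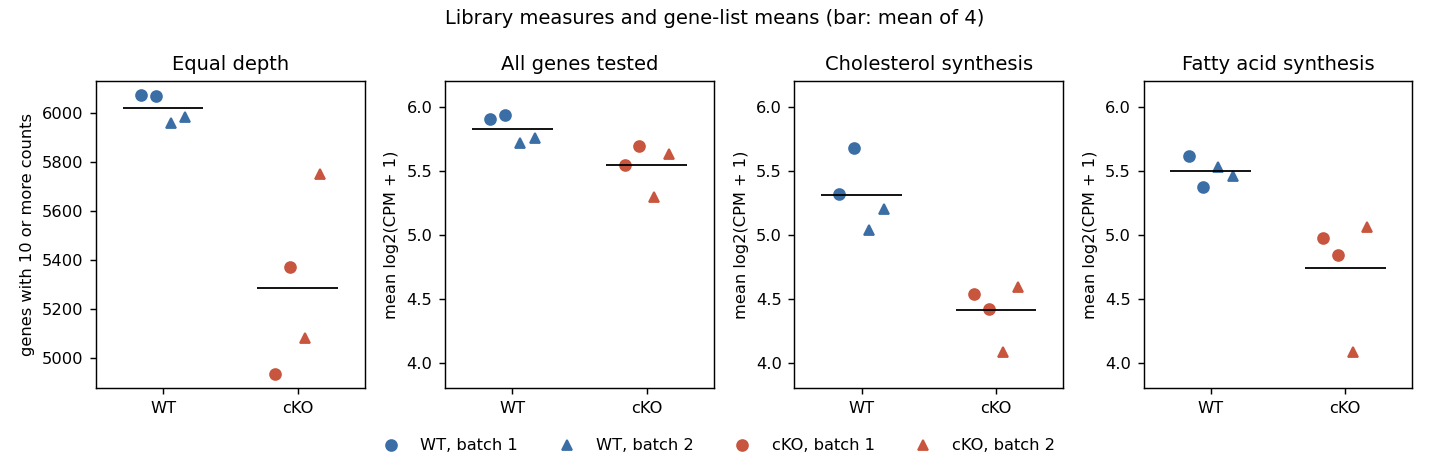
Library measures by genotype, with each library as a point (circles, batch 1; triangles, batch 2) and the mean of 4 as a bar. From left to right: genes with 10 or more counts after thinning to 2081557 counts, then the mean log2(CPM + 1) over all genes tested, over the cholesterol synthesis list and over the fatty acid list. The vertical axes do not start at 0, and all 4 cKO libraries lie below all 4 WT libraries in each panel.

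Promoters of these genes were searched for the core of the sterol regulatory element, TCACNCCA, on both strands. The windows, from RefSeq (GRCm38.p6), run from 250 bases before to 50 after each annotated start, and 4.36% of all 32851 windows, or 4.97% of all genes with a window, hold the motif. Counted by gene, of 18 genes of the cholesterol list with a window, 2 held it, Hmgcs1 and Msmo1. Of 19 genes of the fatty acid list 0 did, and of 13 genes that control SREBP 4 did (Sar1b, Sec24a, Sec24d and Srebf2). The 250 bases before the start are shown for the 2 promoters of the cholesterol list with the motif in capitals, as the windows of this list that hold it. A match is a description, not a bound site. Both lie on the strand of the gene.
Hmgcs1, chr13:119690101-119690350, plus strand: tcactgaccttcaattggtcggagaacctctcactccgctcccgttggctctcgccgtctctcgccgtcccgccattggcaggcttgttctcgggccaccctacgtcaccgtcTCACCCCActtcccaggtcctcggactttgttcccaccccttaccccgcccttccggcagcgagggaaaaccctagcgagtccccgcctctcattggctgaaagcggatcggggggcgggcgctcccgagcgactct
Msmo1, chr8:64733579-64733828, minus strand: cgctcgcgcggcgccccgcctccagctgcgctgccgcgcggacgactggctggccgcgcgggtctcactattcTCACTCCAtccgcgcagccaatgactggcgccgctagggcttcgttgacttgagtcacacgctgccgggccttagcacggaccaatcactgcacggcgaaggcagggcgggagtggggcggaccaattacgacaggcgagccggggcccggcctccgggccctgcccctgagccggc
The match begins 137 bases before the start of Hmgcs1 and 177 bases before that of Msmo1. In the libraries these genes stood at 0.04 and -0.46 on the log2 scale, neither of which passed.

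Gene by gene, fatty acid synthesis and desaturation showed no common direction, with a few enzymes far lower. Of 24 genes 17 had a row and 14 were tested; 8 were lower and 6 higher, with a median of -0.13. The median was 0.33 within batch 1, -0.45 within batch 2, and -0.78 with the replicate number as a block. As a mean over its 14 genes, this list stood apart as the cholesterol list did. The mean log2(CPM + 1) was 5.37 to 5.62 in WT and 4.08 to 5.06 in cKO libraries. The difference was -0.76, with -0.59 and -0.92 within batches, against -0.29 over all genes. The summed CPM overlapped, at 1073 to 1377 in WT and 987.5 to 1537 in cKO libraries. Acaca, the acetyl-CoA carboxylase that commits carbon to fatty acids, was counted at 59.8, 94.0, 102 and 104 CPM in WT and at 4.78, 14.8, 4.07 and 74.8 CPM in cKO replicates 1 to 4. In 3 cKO libraries it lay far below every WT library, while cKO replicate 4 lay within the WT range (-2.16 ± 0.77, unadjusted p = 0.0116, adjusted p = 0.988 in edgeR). Without cKO replicate 4 its log2 fold change was -3.49.

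Elovl6, the elongase that lengthens palmitate, lay at 33.3, 13.2, 11.8 and 16.3 CPM in WT and at 1.59, 0.260, 0 and 11.7 CPM in cKO replicates 1 to 4. Its groups did not overlap, though the highest cKO and the lowest WT library nearly met (-2.87 ± 1.67, adjusted p = 0.988 in edgeR). Oxsm, of mitochondrial fatty acid synthesis, was the other of the 2 genes in the list whose cKO libraries all lay below WT (10.7 to 14.3 CPM against 0.797 to 8.42). Acly, ATP citrate lyase, which supplies cytosolic acetyl-CoA, stood at -0.44 ± 0.28. Scd2, the stearoyl-CoA desaturase, was counted at 97.8 to 162 CPM in WT and 99.5 to 180 CPM in cKO libraries and stood at -0.01 ± 0.37. Elovl5 (0.51 ± 0.33) and Hsd17b12 (0.79 ± 0.52), both of the elongation of long chains, were the highest of the list.

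**Figure D2:**
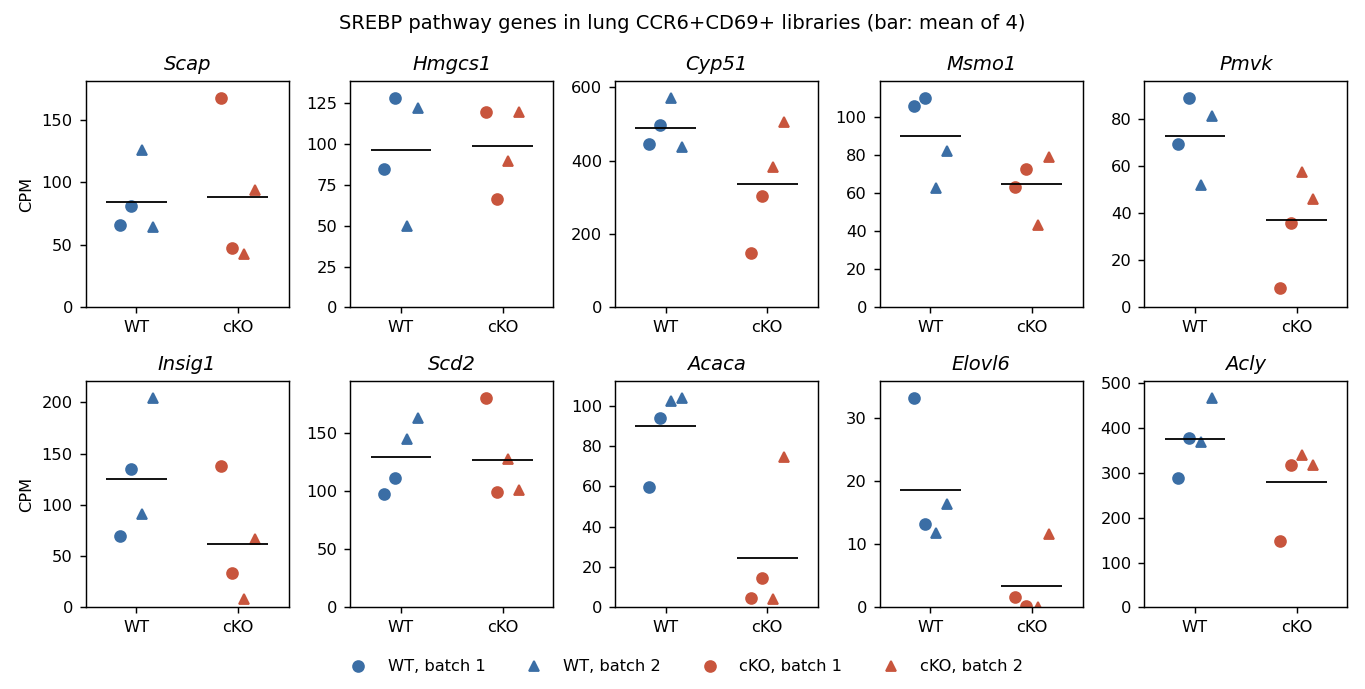
CPM of SREBP pathway genes in each library, with WT in blue and cKO in red (circles, batch 1; triangles, batch 2) and the mean of 4 as a bar; each vertical axis starts at 0. Acaca and Elovl6 are low in cKO replicates 1 to 3, and Scap, Hmgcs1 and Scd2 overlap between genotypes.

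**Figure D3:**
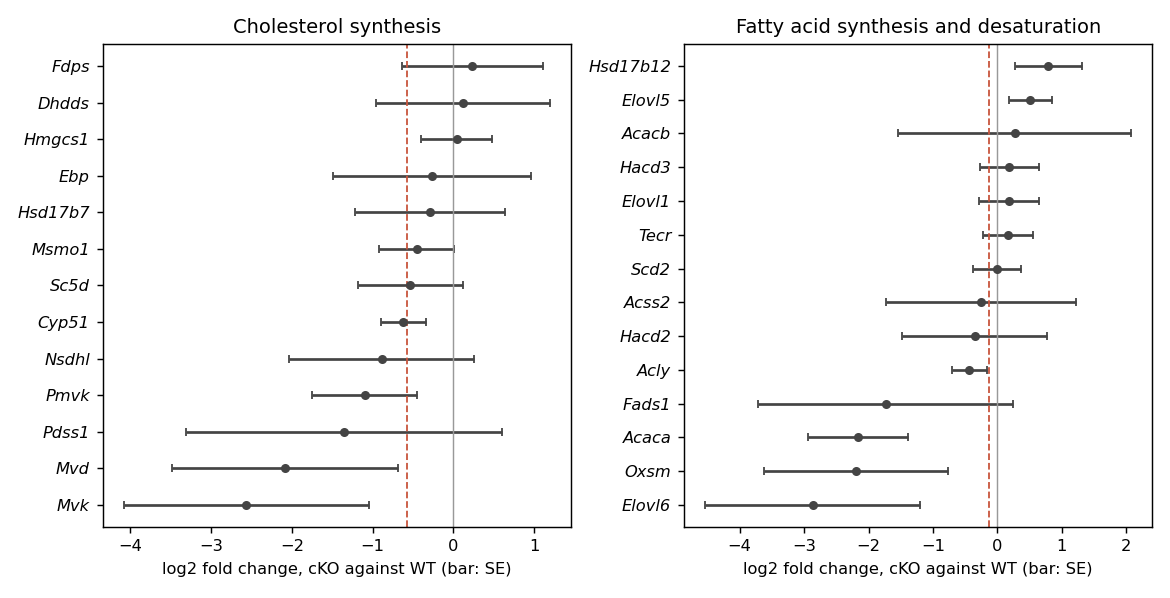
Log2 fold change (cKO against WT) of tested genes of the cholesterol synthesis list (left, 13 of 14 drawn) and the fatty acid list (right), with its SE as a bar and the median of the list as a dashed line. The horizontal axes differ. Mvk and Mvd (left) and Elovl6 and Oxsm (right) lie lowest or next to lowest, with SEs of 1.40 to 1.67.

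The machinery that carries and cleaves SREBP leaned the other way. Of 11 tested genes 9 were higher and 2 lower, with a median of 0.24. Sar1b, the GTPase that starts COPII budding, stood at 1.12 ± 0.58, and Insig2, which retains SCAP, at 0.90 ± 0.45. Mbtps1, which encodes S1P, stood at 0.20 ± 0.37. Insig1, a retention protein that is itself an SREBP target, was 1 of the 2 lower genes. It was counted at 70.0, 135, 91.4 and 204 CPM in WT and at 138, 33.5, 8.15 and 67.0 CPM in cKO replicates 1 to 4. The groups overlapped because of cKO replicate 1 (-1.11 ± 0.64, adjusted p = 0.988 in edgeR), and the value was -0.21 within batch 1 and -1.97 within batch 2.

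Sterol uptake and trafficking held 11 tested genes, 8 lower and 3 higher, with a median of -0.30. Osbpl8, an oxysterol-binding protein at membrane contacts, was the 1 gene of this list with an unadjusted p under 0.05 (0.75 ± 0.31). Of 4 tested LXR targets and efflux genes 3 were higher, and Abca1, the main cholesterol exporter of the list, stood at -0.17 ± 0.24.

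Among the genes with the smallest p, those higher in cKO included Il1b, Irf5 and Cd40, all of immune signalling. Il1b, which encodes the cytokine interleukin-1 beta, was counted at 65.5, 126, 120 and 82.7 CPM in WT and at 339, 140, 222 and 487 CPM in cKO replicates 1 to 4. All 4 cKO libraries lay above all WT libraries (1.56 ± 0.38, adjusted p = 0.988 in edgeR; 0.0466 in limma voom with quality weights). Irf5, a transcription factor of Toll-like receptor signalling, behaved alike, at 84.8 to 251 CPM in WT and 318 to 400 CPM in cKO libraries (1.09 ± 0.32). Cd40, the receptor through which T cells help B cells, was counted at 218, 236, 53.3 and 80.7 CPM in WT and at 613, 333, 228 and 164 CPM in cKO replicates 1 to 4. It was higher in both batches (1.11 and 1.53), though cKO batch 2 overlapped WT batch 1 (1.30 ± 0.31, adjusted p = 0.988 in edgeR).

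Il1b is also abundant in myeloid cells, and myeloid transcripts were present. Of 6 tested granulocyte markers 6 were higher in cKO, with a median of 1.57, and 0 passed. Their list summed to 75.7 to 241 CPM in WT and 43.9 to 1557 CPM in cKO libraries, and within it Epx and Ccr3 were at 0 in all 8 libraries. S100a9, the leading neutrophil transcript, was at 1360 CPM in cKO replicate 1 and at 0 in cKO replicate 3. Of 13 tested macrophage and monocyte markers 7 were higher, and the list summed to 552 to 3470 CPM in WT and 120 to 3364 CPM in cKO libraries. In cKO replicate 3, with Il1b at 222 CPM, S100a9 and S100a8 were at 0 and the macrophage list at its lowest, while Cd14 was at 57.0 CPM, Mmp9 at 29.9 CPM and Adgre1 at 16.7 CPM. The part of myeloid transcripts in the Il1b values was not tested.

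The other 7 higher genes with the smallest p were Zfp783, Carnmt1, Jade2, Atp6v1g1, Mrps17, Snhg15 and Samd10. Jade2, a subunit of a histone acetyltransferase complex, lay at 117 to 154 CPM in WT and 185 to 402 CPM in cKO libraries (1.05 ± 0.32). Mrps17, a protein of the mitochondrial ribosome, lay at 19.0 to 48.7 CPM in WT and 73.8 to 148 CPM in cKO libraries (1.78 ± 0.56). Carnmt1, a carnosine methyltransferase, had WT libraries within 28.0 to 31.1 CPM and cKO libraries from 36.1 to 207 CPM (1.90 ± 0.57). In Zfp783, too, all cKO libraries lay above WT, while the libraries of the remaining 3 genes overlapped. None passed (adjusted p = 0.988 in edgeR for each).

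The genes lower in cKO with the smallest p included Rpl29, Rps28 and Rpl21 of the ribosome and Ndufb1 of the respiratory chain. Rpl29, a protein of the large ribosomal subunit, was counted at 227, 699, 169 and 200 CPM in WT and at 75.7, 42.9, 0.453 and 12.3 CPM in cKO replicates 1 to 4. Every cKO library lay below every WT library (-3.82 ± 0.64, adjusted p = 0.124 in edgeR), by 2.92 on the log2 scale within batch 1 and 4.80 within batch 2. Rps28 (-1.13 ± 0.30) and Rpl21 (-0.96 ± 0.27), of the small and large subunit, had fold changes below 0 in each batch, but their libraries overlapped, with both genes far lower in batch 2 in either genotype. Ribosomal protein genes have many near-identical copies in the genome, and how reads were shared among them is not given, so these 3 values are uncertain. Ndufb1, of respiratory complex I, went from 377, 251, 15.4 and 15.0 CPM in WT to 172, 59.5, 0 and 4.21 CPM in cKO replicates 1 to 4 (-1.98 ± 0.58).

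Cish, a feedback inhibitor of cytokine signalling through STAT5, was steady in WT, at 106, 129, 105 and 131 CPM in replicates 1 to 4. In cKO it stood at 8.37, 29.9, 35.8 and 47.0 CPM. The groups lay apart by more than their own spread (-2.06 ± 0.55, adjusted p = 0.988 in edgeR). Ankrd11, a chromatin regulator, stood at -0.77 ± 0.23 and Lime1, an adaptor of antigen receptor signalling, at -2.87 ± 0.86, both with overlap. Spc25, a kinetochore protein of dividing cells, had 95 counts over the WT libraries and 0 over the cKO libraries. Set against 3 counts per cKO library it was at least 4.73-fold lower, from a WT mean of 5.10 CPM. Gm14296 had 244 counts in WT and 2 in cKO, a depth-scaled ratio of 69.7 with an exact 95% interval of 19.1 to 579 that covers counting error only. Both Spc25 and Gm14296 passed the filter on low counts through their WT libraries alone. Eps8l1 completed the list, with 2.33 CPM in WT replicate 1 and 41.0 to 88.9 CPM in the other WT libraries, so its groups overlapped.

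**Figure D4:**
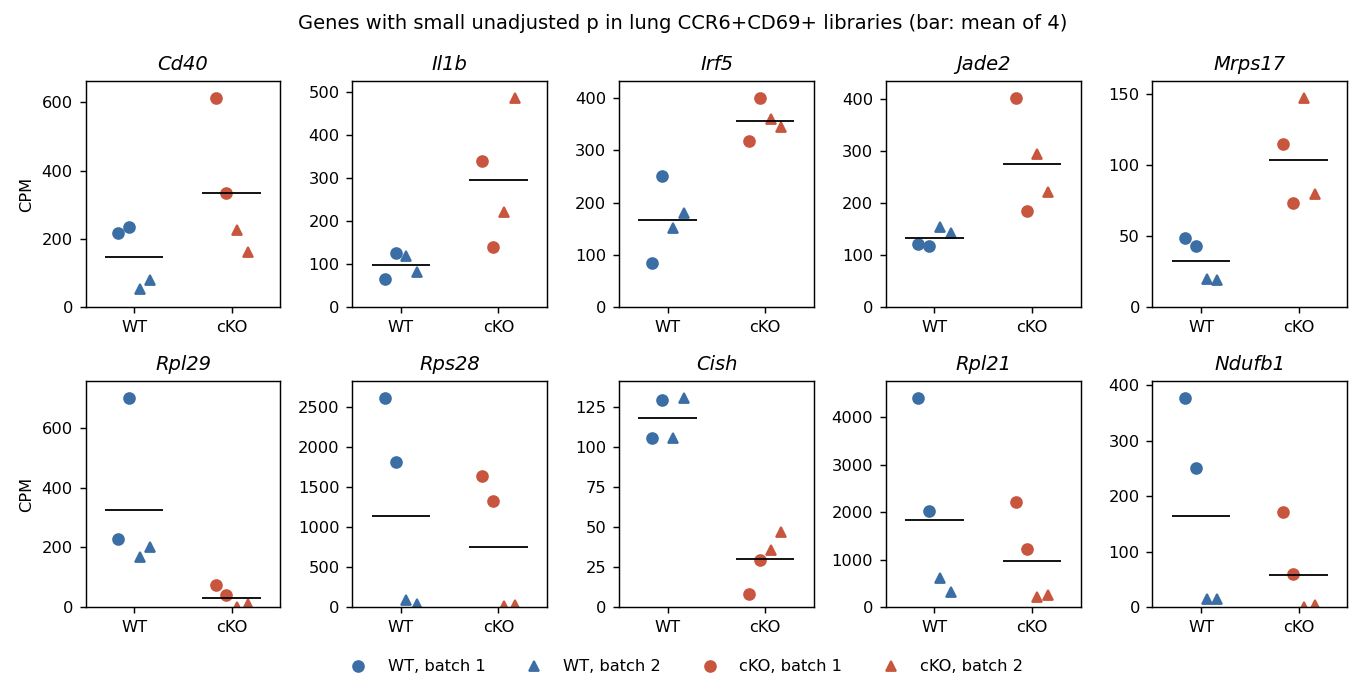
CPM of 10 of the genes with the smallest p in each library, 5 higher (top row) and 5 lower (bottom row) in cKO, drawn as in the plot of SREBP genes. Il1b, Irf5, Jade2, Mrps17, Rpl29 and Cish separate the genotypes fully, and Rps28, Rpl21 and Ndufb1 are far lower in batch 2 in both genotypes.

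Genes that flank Scap on chromosome 9 were read in their RefSeq order, because the floxed allele lies there. Of the 89 tested genes within 50 positions of Scap (39 on the distal side), 8 were lower and 0 higher at an unadjusted p under 0.05, which is 8.99% against 4.42% over all genes in the same fit, and 0 passed after adjustment. They included Aste1, Dusp7, Rpl29, Parp3 and Cish on the proximal side and Setd2 and Rps27rt, a ribosomal protein copy whose count is uncertain in the same way, on the distal side. Rpl29 and Cish, the first and the third of the lower genes by p over all genes tested, were 27 and 21 tested genes away from Scap; Rps28 ranked between them. Dusp7, a phosphatase of ERK, lay at 8.78 to 17.7 CPM in WT and 0 to 1.20 CPM in cKO libraries. Setd2, a histone methyltransferase 2 tested genes away, stood at -0.63 ± 0.29. Within 25 positions on each side 4 of 50 were lower and 0 higher (8%). Within 100 positions 8 of 139 were lower and 2 higher (7.19%), and over the 257 tested genes of the chromosome 11 were lower and 5 higher (6.23%). Of these windows, that of 50 positions held the largest share.

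**Figure D5:**
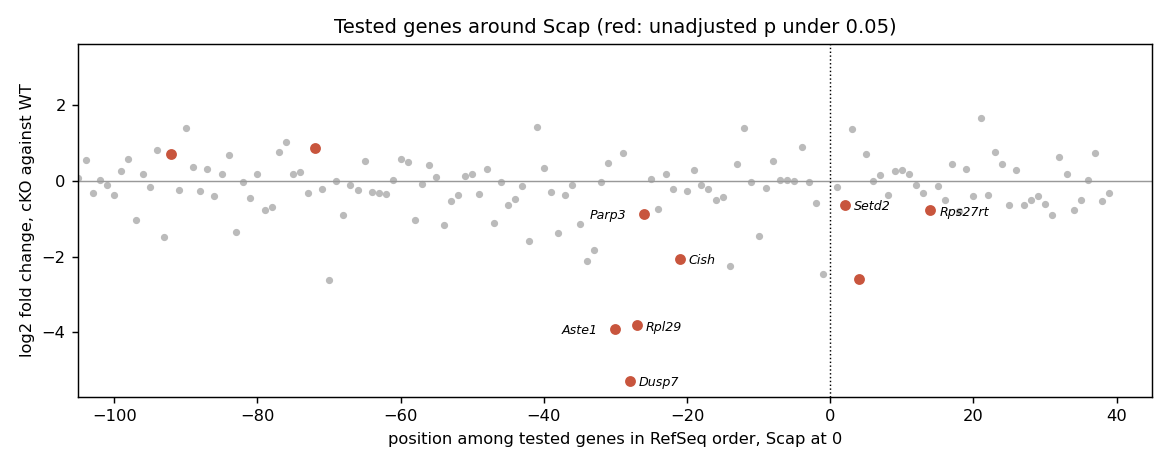
Log2 fold change (cKO against WT) of tested genes on chromosome 9 against their position in the order of tested genes, with Scap at 0. Genes with an unadjusted p under 0.05 are red, and the 8 within 50 positions of Scap are all below 0.

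No gene of the B cell programmes passed after adjustment. Of 20 tested genes of B cell receptor signalling and early response, 10 were higher and 10 lower, with a median of 0.00 and none with an unadjusted p under 0.05. Fcgr2b, the inhibitory Fc receptor, lay at 283 to 389 CPM in WT and 394 to 481 CPM in cKO libraries (0.41 ± 0.23). The 20 tested genes of NF-kB and the CD40 response divided equally, and after Cd40 the smallest p was that of Rela, an NF-kB subunit, at 165 to 226 CPM in WT and 271 to 316 CPM in cKO libraries (0.55 ± 0.27). Of 11 tested genes of tissue retention 7 were higher, with Bhlhe40, a factor of tissue-resident lymphocytes, at 0.57 ± 0.32. Of 9 tested genes of recirculation and egress 7 were higher as well, with Ccr7, a lymph node homing receptor, at 0.43 ± 0.28 and S1pr1, the egress receptor, at 0.53 ± 0.39. Of 6 tested genes of antigen presentation by MHC class II 4 were higher, with a median of 0.20.

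Plasma cell genes were lower in 6 of 8 tested, with a median of -0.57. Jchain, which joins polymeric antibody, lay at 79.6 to 282 CPM in WT and 90.5 to 149 CPM in cKO libraries (-0.66 ± 0.39). Sdc1, the plasma cell surface marker CD138, was scarce in both (3.33 to 4.85 CPM in WT, 0 to 1.30 CPM in cKO). It was the 1 gene of the list with an unadjusted p under 0.05 in edgeR. Within batch 2 the median of the list was 0.15. Proliferation genes divided equally, 6 and 6: Rrm2, a subunit of ribonucleotide reductase, was lower in every cKO library (3.50 to 22.7 CPM against 0 to 1.30), while Mki67 stood at 0.79 ± 0.42.

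Interferon response genes were higher in 8 of 11 tested, with a median of 0.56 and members far apart. Isg15, a ubiquitin-like protein, was counted at 7.33, 23.7, 0 and 9.67 CPM in WT and at 76.1, 98.7, 50.7 and 14.3 CPM in cKO replicates 1 to 4 (2.62 ± 1.03, unadjusted p = 0.0196). Ifit2 stood at 2.62 ± 1.15, with 181 CPM in cKO replicate 1 and 1.30 CPM in cKO replicate 2. Xaf1, a pro-apoptotic interferon target, went the other way, at 8.67 to 36.4 CPM in WT and 0 to 1.04 CPM in cKO libraries. None of these passed after adjustment.

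Of 22 tested genes on the respiratory chain list, 4 had an unadjusted p under 0.05 (4.42% over all genes), 2 in each direction. Ndufb1 is not on that list. Atp5f1b, the catalytic subunit of ATP synthase, lay at 899 to 1202 CPM in WT and 1221 to 1668 CPM in cKO libraries (0.52 ± 0.19). Ndufs3, of complex I, was also higher (1.09 ± 0.43), while Ndufb5, of the same complex (-1.39 ± 0.50), and Atp5pb, of the stalk of ATP synthase (-0.73 ± 0.29), were lower. Glycolysis genes were higher in 7 of 11 tested, with the enolase Eno1 at 0.61 ± 0.29. Fatty acid oxidation divided 8 and 8, with the dehydrogenase Hadh at -1.30 ± 0.90. Of 15 tested genes of apoptosis and survival 11 were higher, with Bax, a mitochondrial death effector, at 1.12 ± 0.45. Of 15 tested genes of oxidative stress and ferroptosis 9 were lower, among them Keap1, which holds the stress factor NRF2 in check, at 52.4 to 69.5 CPM in WT and 8.15 to 27.0 CPM in cKO libraries (-1.63 ± 0.73).

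Whether the effect of genotype was particular to CCR6+CD69+ cells was tested in a fit of all 24 libraries with 6779 genes. In edgeR, 0% of genes passed for the difference from lung CCR6-CD69- cells (0 genes, 235 at an unadjusted p under 0.05) and 0% for the difference from circulating cells (0 genes, 367 at an unadjusted p under 0.05). By DESeq2, 6 and 30 genes passed for these differences, and edgeR without the filter called 3 and 0. The smallest p for the first belonged to Rps21, a ribosomal protein of the small subunit, at -0.53 in CCR6+CD69+ and 1.41 in CCR6-CD69- cells (difference -1.94 ± 0.53). The others named by the same rule (Art4, Abcb1a, Hint2, Zfp704 and 1810044D09Rik) had fitted differences beyond 12 on the log2 scale with SEs beyond 3, from groups near 0 counts.

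Rpl29 had its lower values in cKO cells in every population, without passing in any. In lung CCR6-CD69- cells it lay at 189, 287, 153 and 131 CPM in WT and at 88.6, 42.4, 1.86 and 0 CPM in cKO replicates 1 to 4. In circulating cells it lay at 884, 519, 141 and 144 CPM in WT and at 155, 128, 4.34 and 0 CPM in cKO replicates. Within each batch every cKO library was below every WT library, with log2 fold changes of -3.83 ± 1.03 and -3.45 ± 0.97 (adjusted p = 0.468 and 0.418 in edgeR). For Cish the genotypes overlapped within batch 1 in both of those populations. It stood at -0.20 ± 1.24 and -1.02 ± 1.38 there. These SEs are too wide to show whether its lower value in CCR6+CD69+ cells was shared. Acaca stood at -1.56 ± 1.18 and -1.14 ± 1.22, Insig1 at -1.42 ± 0.82 and -0.60 ± 0.81, and Hmgcs1 at -0.60 ± 0.89 and 1.29 ± 0.90, in lung CCR6-CD69- and circulating cells in turn. The difference of the genotype effect between populations passed for none of these 5 genes.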

How the data were processed

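Per the labels' protocols, polyA RNA was extracted with a Zymo microprep kit and made into libraries with an xGen broad-range kit adapted to few cells. The values deposited by the authors are raw counts by gene symbol (18470 rows). FastQC, STAR, Salmon and mm39 are named in the submitters' processing notes without versions or roles. Rows of some SREBP targets and of the gene of CCR6 are not analysed here, and some items are not reported here.

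Counts were fitted with edgeR 4.0.16 in R 4.3.3: TMM scaling, filterByExpr by genotype, genotype and batch terms, robust quasi-likelihood F-test, Benjamini-Hochberg adjustment over all genes tested, threshold 0.05. Differences between populations used all 24 libraries. CPM values are TMM-scaled. Of 713 genes on 37 lists, 344 were tested. Members, lists and tests were chosen with earlier results of these data known. Genes named are Scap, Cd69, SREBP targets, the 10 higher and 10 lower with the smallest p and at least 5 CPM in a group, up to 4 per list and 3 per difference between populations; other list members and the genes around Scap were named after their values were seen. Gene order replaced windows in megabases around Scap, because the reference (GRCm38) is not the build of the files.

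Same-numbered WT and cKO libraries deviated together from their group means (r = 0.138, 0.209, 0.101 and 0.214 across genes) and share the labelled batch. With batch removed, r was -0.069 and -0.0573. Alternatives used limma 3.58.1 (voom), DESeq2 1.42.0, other scaling, filters and batch terms, each batch, all 24 libraries, a replicate block, each library left out and, chosen after seeing the data, thinned counts. The test was tested on simulated data.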

Additional observations from a re-analysis of the deposited data

Results flagged for a closer look

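Of 152 groups of 4 libraries examined, for the genes named and the library measures, 14 held a library far from the other 3 by Dixon's criterion. The criterion flags about 1 in 20 groups of normally distributed values. Raw CPM in groups that span 2 batches need not meet that, so the number that chance would flag here is not known. In the cKO group the lone library was high for Acaca (74.8 CPM, next 14.8), Elovl6 (11.7 CPM, next 1.59), Mvk (8.57 CPM, next 0.797), Insig2 (282 CPM, next 88.9), Bax (416 CPM, next 109), Eno1 (1025 CPM, next 632), Ndufb5 (196 CPM, next 36.9), Lime1 (74.6 CPM, next 12.8), Sec24c (258 CPM, next 208) and Gm14296 (0.797 CPM, next 0). It was low for Acly (147 CPM, next 317) and Fcgr2b (394 CPM, next 475). In the WT group it was high for Rpl29 (699 CPM, next 227) and Atp5f1b (1202 CPM, next 920). The high Acaca and Elovl6 values were both in cKO replicate 4, and the high Insig2, Bax and Eno1 values in cKO replicate 1.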

How the results depend on the processing

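The count of 0 genes between genotypes held under DESeq2, RLE scaling, the stricter filter, no immunoglobulin rows, no batch term, each batch alone, all 24 libraries, a minimum change of 1, thinning and the replicate block (0 genes). It was 1 under limma voom and 8 with no filter, and 0 to 1 with each library left out in turn; the cause was not tested. The block changed no other call, in these paired numbers. The cholesterol median was -0.96 under voom and -0.98 with the replicate block, and -0.48 to -0.73 with each library left out. The fatty acid median was -0.66 under voom, 0.33 in batch 1, -0.45 in batch 2 and -0.78 with the replicate block, 0.02 without the batch term, and -0.30 to 0.03 with each library left out. Voom and the block moved the median of all genes to -0.12 and -0.14. Differences between populations gave 3 genes with no filter (lung CCR6-CD69-), and 6 and 30 under DESeq2.

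Of 71 genes, 67 kept their direction under every alternative in which they were tested, of 21 (11 of 1491 pairs of gene and alternative gave no value, in 4 genes). Unadjusted p under 0.05 held for 83 to 542 genes over all alternatives (542 in batch 1 alone, 83 with a minimum change of 1). Scap reversed under voom (-0.17), batch 2 alone (-0.48), the block (-0.10) and without WT replicate 1, 2 or 4 (-0.11, -0.01, -0.05) or cKO replicate 1 or 4 (-0.53, -0.01), in a range of -0.53 to 0.37 over libraries left out. Hmgcs1 reversed in batch 1 (-0.15) and without WT replicate 1 or 3 (-0.00168, -0.20) or cKO replicate 1 or 4 (-0.08, -0.03), with 0.29 as the highest (without cKO replicate 2). Scd2 reversed under RLE (0.0153), DESeq2 (0.0153), the stricter filter (0.00151), batch 1 (0.46), thinning (0.035) and without WT replicate 3 or 4 (0.04, 0.11) or cKO replicate 2, 3 or 4 (0.13, 0.03, 0.21), with -0.28 as the lowest (without cKO replicate 1). In batch 2 alone S1pr1 was -0.16. Depth limits the low genes: 3 counts stood for up to 1.44 CPM.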
